A study of Glycine max with 18 samples.

Results

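The genes described here are MIPS, also named GmMIPS1, and MIPS4, the genes of germinating soybean seed whose gene symbols mark them as myo-inositol phosphate synthases. They were found by matching the RefSeq identifiers of the expression table, NM_001248320.1 for MIPS and XM_003531313.3 for MIPS4, to gene symbols, and are 2 of its 45955 genes. The rule that picked them uses no measured value, but it was set with earlier results of these data known. RNA was sequenced from seeds of the low phytic acid (LPA) mutants TW-1-M and TW-1 at 3 germination stages with 3 replicates each, in 18 libraries. TW-1 came from gamma irradiation of the variety Taiwan 75 and is labelled with a very low rate of field emergence. TW-1-M descends from a single variant plant found within TW-1 and is labelled with a higher rate. Both lines carry the same 2-bp deletion in GmMIPS1, and no library of the wild-type parent was analysed here, so that the levels below compare 2 carriers of one lesion. The seeds germinated in the dark at 25 °C. Stage 1 was the imbibed seed, stage 2 is given by the labels as 12 h past the end of imbibition, and at stage 3 the primary root had reached 1 mm. The text of the study gives a shorter step between stages 1 and 2 than the labels do, and which time holds was not settled. A group is named by line and stage, so that TW-1-M-2 is TW-1-M at stage 2. The labels do not say whether replicates came from separate plants or dishes, so the tests measure the spread between these libraries, which may be technical.

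Myo-inositol phosphate synthase carries out the step that commits glucose phosphate to inositol. The enzyme cyclizes it to myo-inositol phosphate, from which plants make phytate, the main phosphorus store of the seed, through the inositol phosphate kinases. Free inositol, released by inositol monophosphatase, is also joined to galactose by galactinol synthase, and galactinol feeds the raffinose family sugars of the seed. Soybean has several genes of the enzyme, and GmMIPS1 is the form best known from the developing seed, where its loss lowers phytate. A level per gene does not show the deletion itself. Since both lines carry it and no wild-type library was analysed here, the level of MIPS checks no label.

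The values are FPKM, fragments scaled by transcript length and by the mapped fragments of the library, which allow levels of different genes to be set beside each other. Their sum per library ranged from 683231 to 1296622, and from 30656 to 34820 genes were above 0. The fewest genes were seen in TW-1-3 replicate 1, which stood apart from the other libraries of its group. Of 19 markers of soybean seed, 12 were in the table and 10 had a median of at least 1 FPKM. The trypsin inhibitor BBI was listed at 0 in every library, while the embryo protein gene LEA5 lay between 532 and 26040 FPKM. The summed level of these markers was 637 to 1287 FPKM in TW-1-M-3, against 4941 to 27106 FPKM in TW-1-3, and 3929 to 5289 FPKM in TW-1-M-2, against 10836 to 13173 FPKM in TW-1-2. It was 10565 to 21535 FPKM in TW-1-M-1, against 15772 to 20896 FPKM in TW-1-1. Of 8 leaf markers 3 were in the table, while 0 of 6 nodule markers were. The sum of the leaf markers was 192 to 343 FPKM in TW-1-M-2, against 62.1 to 138 FPKM in TW-1-2, and 354 to 705 FPKM in TW-1-M-3, against 67.6 to 973 FPKM in TW-1-3. It was 26.0 to 75.2 FPKM in TW-1-M-1, against 42.1 to 214 FPKM in TW-1-1. At stage 2 the seed marker sum was thus lower and the leaf marker sum higher in TW-1-M-2 without overlap, and their part in the results was not tested. LEA5 weighs most in the seed sum, with a median of 9119 FPKM over the 18 libraries, against 249 FPKM for GY2, the next highest. CAB3 weighs most in the leaf sum (median 101 FPKM, against 38.6 FPKM for RBCS1). The markers were not compared gene by gene. In these bulk samples fewer cells of a kind and less RNA per cell cannot be told apart.

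Over all 18 libraries the mean of each gene was below that of most genes tested. MIPS lay between 1.22 and 14.9 FPKM over the 18 libraries, with a median of 3.29 FPKM. It reached 1 FPKM in all 18, and its mean was above that of 38.7% of the 27150 genes kept for the tests, which had at least 1 FPKM in at least 3 libraries. MIPS4 lay between 0 and 28.4 FPKM, with a median of 2.64 FPKM and a mean above that of 46.3% of the genes kept. MIPS4 reached 1 FPKM in 14 libraries and was listed at 0 in TW-1-M-2 replicate 3. Over all libraries the SD of log2(FPKM + 1) was 1.39 for MIPS4 and 0.71 for MIPS, so the level of MIPS4 was the more variable of the pair.

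**Figure D1:**
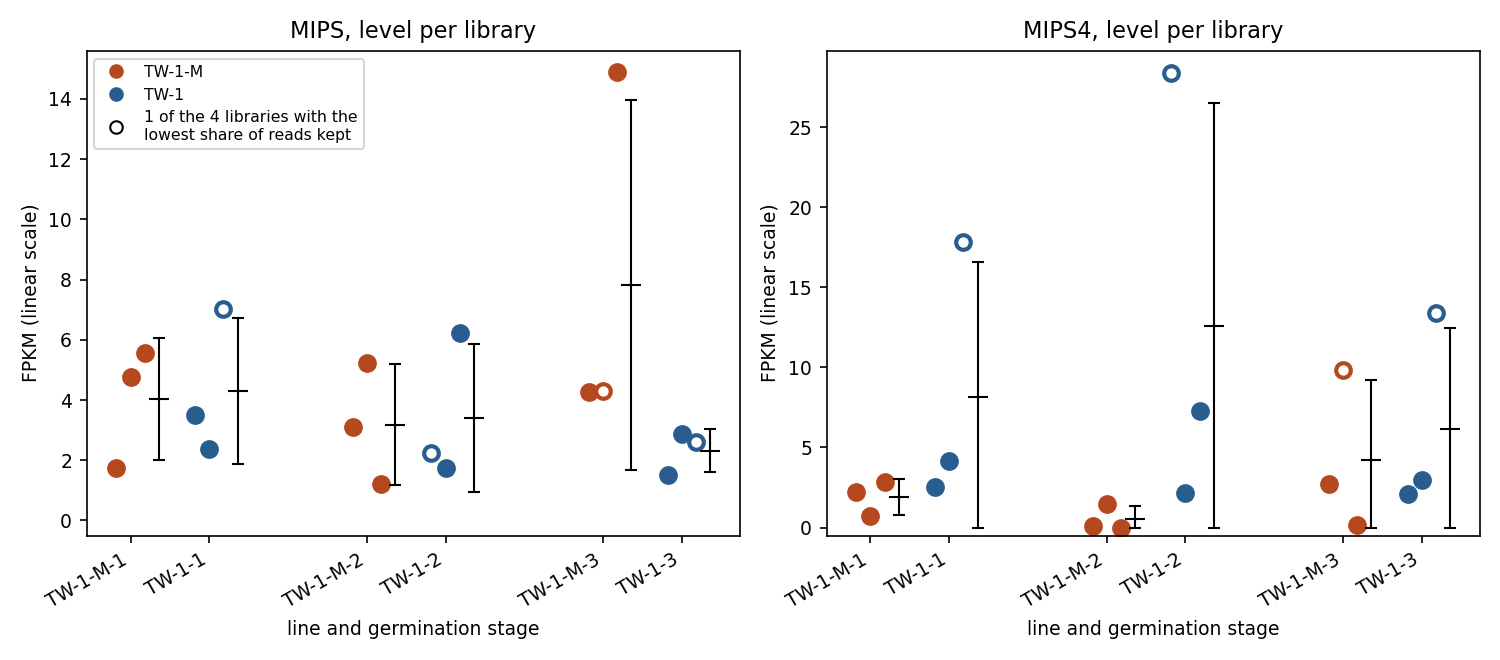
FPKM of MIPS (left) and MIPS4 (right) in each of the 18 libraries, by line and stage, on linear axes. Points are libraries, black dashes and bars are the mean and SD of 3 libraries with the lower bar stopped at 0, and open points are the 4 libraries that kept the smallest share of their reads after trimming. MIPS4 is highest in these 4 libraries, and MIPS is highest in TW-1-M-3 replicate 3 at 14.9 FPKM.

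Ordered by group mean, MIPS was highest in TW-1-M-3 (7.82 ± 6.13 FPKM), followed by TW-1-1, TW-1-M-1, TW-1-2 and then by TW-1-M-2, and lowest in TW-1-3 (2.32 ± 0.726 FPKM; SD, n = 3 each). MIPS4 was highest in TW-1-2 (12.6 ± 13.9 FPKM), followed by TW-1-1, TW-1-3, TW-1-M-3 and then by TW-1-M-1, and lowest in TW-1-M-2 (0.527 ± 0.819 FPKM). In both orders each group overlapped its neighbours.

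MIPS4 was highest in TW-1-2 replicate 1, TW-1-1 replicate 3, TW-1-3 replicate 3 and TW-1-M-3 replicate 2, at 28.4, 17.8, 13.4 and 9.82 FPKM. The highest of the other 14 libraries had 7.30 FPKM. The same 4 libraries kept the smallest share of their reads after trimming in the read statistics of the study, and 3 of them are libraries of TW-1. The part of this in the differences of MIPS4 between the lines was not tested directly, and these differences are therefore given with and without the 4 libraries.

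To compare the lines at each stage, log2(FPKM + 1) was fitted with limma, two-sided, with p-values adjusted after Benjamini-Hochberg over the 27150 genes kept, and a gene was called at an adjusted p-value below 0.05. A looser rule, a log2 fold change beyond 1 in either direction with an unadjusted p-value below 0.05, is given beside it. The methods of the study name such a rule once with a corrected and once with a plain p-value. Log2 fold changes are on the log2(FPKM + 1) scale, which makes those of genes near 0 FPKM smaller than their FPKM ratios, and ± after them is the standard error.

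In the imbibed seed MIPS did not separate the lines. It had 1.74, 4.78 and 5.56 FPKM in TW-1-M-1, against 3.49, 2.36 and 7.01 FPKM in TW-1-1. The values of both groups covered nearly the same range, with a log2 fold change of -0.07 ± 0.44 (95% interval -1.12 to 0.97, adjusted p = 0.950, limma). MIPS4 had 2.20, 0.69 and 2.87 FPKM in TW-1-M-1, against 2.54, 4.14 and 17.8 FPKM in TW-1-1. The lowest library was of TW-1-M-1 and the highest of TW-1-1, but the groups overlapped, and the log2 fold change of -1.34 ± 0.64 was not called (95% interval -2.85 to 0.17, adjusted p = 0.379, limma). Without TW-1-1 replicate 3 it was -0.63 (adjusted p = 0.502). Neither gene was among the 0.468% of genes called at this stage, nor among the 4.07% that met the looser rule.

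At stage 2 the libraries of the lines lay apart in MIPS4 and overlapped in MIPS. MIPS had 3.09, 5.23 and 1.22 FPKM in TW-1-M-2, against 2.23, 1.73 and 6.22 FPKM in TW-1-2. The groups overlapped throughout, with a log2 fold change of -0.06 ± 0.47 (95% interval -1.15 to 1.04, adjusted p = 0.937, limma). MIPS4 had 0.11, 1.47 and 0 FPKM in TW-1-M-2, against 28.4, 2.14 and 7.30 FPKM in TW-1-2. All 3 libraries of TW-1-M-2 were below all 3 of TW-1-2, and 2 of them were near 0.

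MIPS4 was called lower in TW-1-M-2 than in TW-1-2, by a log2 fold change of -2.71 ± 0.75 (95% interval -4.45 to -0.96, adjusted p = 0.0447, limma). At this stage 19.2% of all genes were called, 9.87% of all as lower in TW-1-M-2, and 21.5% were lower with no overlap between the lines, so the result for MIPS4 was shared with many genes. It also met the looser rule, as did 7.5% of genes in the same direction. Without TW-1-2 replicate 1, the library with the highest MIPS4 level, the log2 fold change was -1.87 (adjusted p = 0.0341, limma). The call was lost when TW-1-2 replicate 3 (adjusted p = 0.0753) or any library of TW-1-M-2 was left out (adjusted p = 0.0995, 0.0956 and 0.142 without replicates 1, 2 and 3), with every value below 0. It was also lost when no filter on low values was set (adjusted p = 0.170) and when all 18 libraries shared one fit (adjusted p = 0.0654).

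At stage 3 MIPS was the gene whose libraries lay apart between the lines, but neither gene was called. MIPS had 4.26, 4.30 and 14.9 FPKM in TW-1-M-3, against 1.50, 2.87 and 2.60 FPKM in TW-1-3. All 3 libraries of TW-1-M-3 were above all 3 of TW-1-3, and replicate 3 stood far above the others of its group. The log2 fold change was 1.22 ± 0.48 (95% interval 0.07 to 2.37, unadjusted p = 0.0404, adjusted p = 0.538, limma). MIPS thus met the looser rule, as did 1.99% of genes in this direction (5.03% in both), and missed the adjusted threshold, which 0.0184% of genes passed. Groups that were higher in TW-1-M-3 without overlap were found for 9.86% of genes. Even the looser rule was no longer met without TW-1-M-3 replicate 3 (log2 fold change 0.69, unadjusted p = 0.0801), without TW-1-3 replicate 1, 2 or 3 (1.03, 1.35 and 1.29, unadjusted p = 0.0758, 0.0571 and 0.0736), without the libraries of this stage that kept fewest of their reads (1.56, unadjusted p = 0.0740) or with no filter on low values (unadjusted p = 0.0699, limma).

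MIPS4 at stage 3 had 2.73, 9.82 and 0.17 FPKM in TW-1-M-3, against 2.11, 3.00 and 13.4 FPKM in TW-1-3. The level of TW-1-M-3 replicate 3, in which MIPS was highest, was the lowest of the 6 libraries. The log2 fold change of -0.64 ± 0.91 was not called (95% interval -2.81 to 1.53, adjusted p = 0.732, limma), and it was -0.76 without TW-1-M-3 replicate 2 and TW-1-3 replicate 3 (adjusted p = 0.657). Its direction turned without TW-1-3 replicate 3 alone (0.04) or TW-1-M-3 replicate 3 (0.17).

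**Figure D2:**
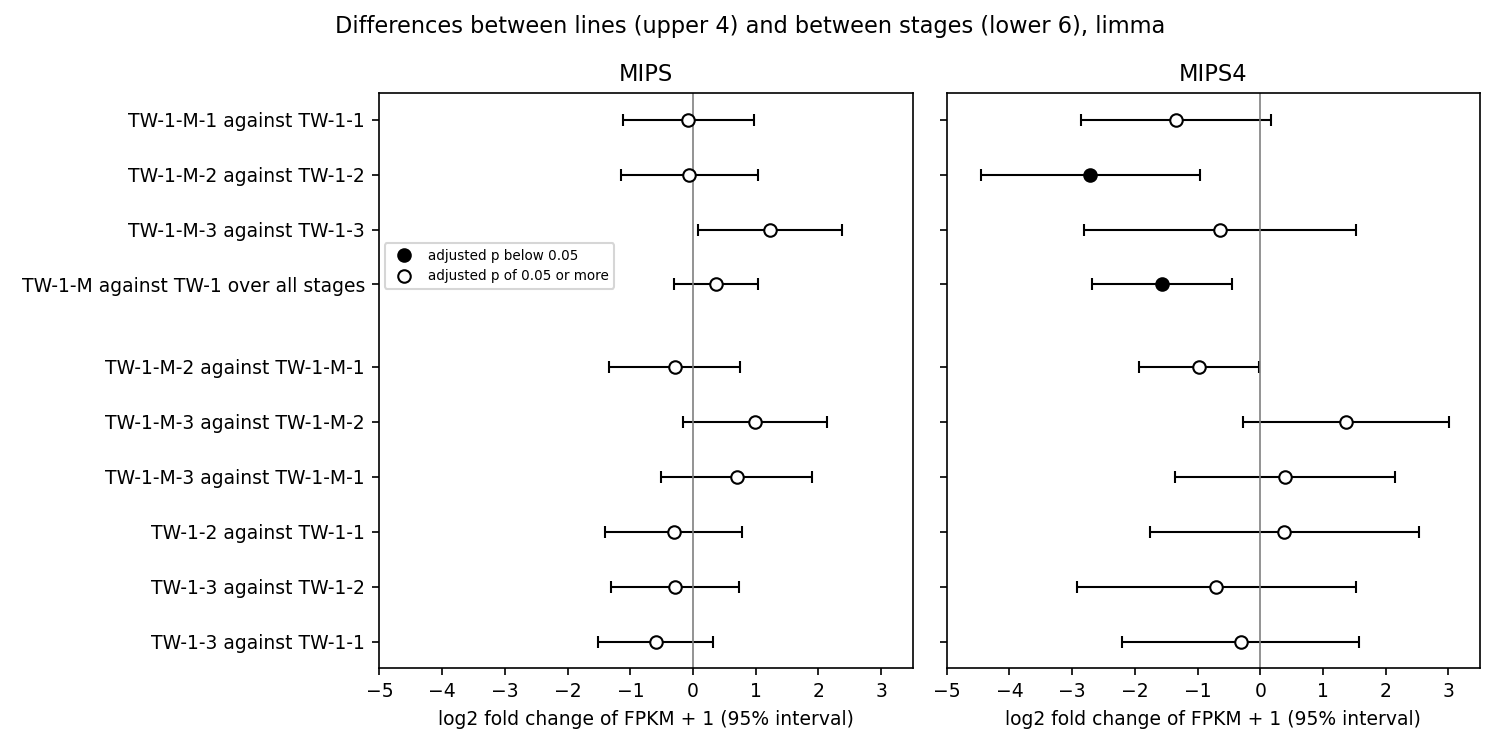
Log2 fold changes of FPKM + 1 with 95% intervals for MIPS (left) and MIPS4 (right), with the comparisons between lines above those between stages. Filled points are called at an adjusted p-value below 0.05 (limma). The called values are those of MIPS4 at stage 2, -2.71, and over all stages, -1.56.

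Over all stages, with stage as a covariate and 9 libraries of each line, MIPS4 was lower in TW-1-M by a log2 fold change of -1.56 ± 0.53 (95% interval -2.68 to -0.45, adjusted p = 0.0368, limma). This fit called 28.9% of all genes, 14.7% as lower in TW-1-M. Without the 4 libraries that kept fewest of their reads the value was -1.10 (adjusted p = 0.0479), and without TW-1-3 replicate 1 it was -1.75 (adjusted p = 0.0256). The call was lost with replicate 1, 2 or 3 of every group left out (log2 fold changes of -1.58, -2.26 and -0.85, adjusted p = 0.0810, 0.0505 and 0.349), with FPKM scaled to equal sums (-1.44, adjusted p = 0.0514) and without the stage term (adjusted p = 0.0954). For MIPS the log2 fold change over all stages was 0.36 ± 0.32 (95% interval -0.31 to 1.04, adjusted p = 0.379). A change of the line difference with the stage was tested as an interaction, which 16 of the 27150 genes passed (0.0589%). Neither MIPS (F = 2.01, adjusted p = 0.681, limma) nor MIPS4 (F = 1.36, adjusted p = 0.752) was among them. The line difference was thus not shown to change with the stage in either gene.

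Within TW-1-M, neither gene was called between any pair of stages. From stage 1 to 3 MIPS averaged 4.03 ± 2.02, 3.18 ± 2.01 and 7.82 ± 6.13 FPKM (SD, n = 3 each). Its log2 fold change was -0.29 ± 0.45 in TW-1-M-2 against TW-1-M-1 (adjusted p = 0.633) and was 0.99 ± 0.50 in TW-1-M-3 against TW-1-M-2 (adjusted p = 0.253, limma). The log2 fold change of MIPS in TW-1-M-3 against TW-1-M-1 was 0.70 ± 0.51 (adjusted p = 0.279). The highest mean, that of TW-1-M-3, rested on 1 library of 14.9 FPKM, and the other 2 lay within the range of the earlier stages.

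MIPS4 averaged 1.92 ± 1.12, 0.527 ± 0.819 and 4.24 ± 5.0 FPKM from stage 1 to 3 of TW-1-M. In TW-1-M-2 against TW-1-M-1 its log2 fold change was -0.98 ± 0.42 (95% interval -1.94 to -0.01, unadjusted p = 0.0474, adjusted p = 0.107, limma), with 1.47 FPKM in the highest library of TW-1-M-2 and 0.69 FPKM in the lowest of TW-1-M-1. It was 1.37 ± 0.72 in TW-1-M-3 against TW-1-M-2 (adjusted p = 0.269). There it was 0.58 without TW-1-M-3 replicate 2 (adjusted p = 0.518) and 2.18 without TW-1-M-3 replicate 3 (adjusted p = 0.0672, limma). In TW-1-M-3 against TW-1-M-1 the log2 fold change of MIPS4 was 0.39 ± 0.75 (adjusted p = 0.677). Many other genes did change in this line. Of all genes, 27.7% were called in TW-1-M-2 against TW-1-M-1 and 3.24% were called in TW-1-M-3 against TW-1-M-2. In TW-1-M-3 against TW-1-M-1, 53.8% were called.

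In TW-1 neither gene was called between stages either. MIPS averaged 4.29 ± 2.43, 3.39 ± 2.46 and 2.32 ± 0.726 FPKM from stage 1 to 3, with log2 fold changes of -0.31 ± 0.46 in TW-1-2 against TW-1-1 (adjusted p = 0.766), -0.29 ± 0.42 in TW-1-3 against TW-1-2 (adjusted p = 0.743) and -0.60 ± 0.39 in TW-1-3 against TW-1-1 (adjusted p = 0.293, limma). The means were lower at each later stage, by less than the spread between replicates. MIPS4 averaged 8.17 ± 8.40, 12.6 ± 13.9 and 6.17 ± 6.28 FPKM, and at every stage its SD was as large as its mean, since 1 library of each group lay far above the other 2. Its log2 fold changes were 0.39 ± 0.91, -0.70 ± 0.93 and -0.31 ± 0.79 in the same order of comparisons (adjusted p = 0.858, 0.717 and 0.789). In TW-1 0 genes at all were called in TW-1-2 against TW-1-1 (0%) and 0 in TW-1-3 against TW-1-2 (0%), where 2.8% and 7.75% met the looser rule, and 0.991% were called in TW-1-3 against TW-1-1. The 2 members were not among any of these. Of the 12 stage comparisons of the members, 1 had an unadjusted p-value below 0.05, that of MIPS4 in TW-1-M-2 against TW-1-M-1.

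The balance of both genes was taken in each library as log2(FPKM + 1) of MIPS minus that of MIPS4, which is above 0 where MIPS is the higher. It averaged 0.77 in TW-1-M-1, against -0.50 in TW-1-1, a difference of 1.27 (exact permutation test, two-sided, p = 0.2) that ranged from 0.71 to 2.19 with a replicate number left out. At stage 2 it averaged 1.46 in TW-1-M-2, against -1.20 in TW-1-2, a difference of 2.65 (exact permutation p = 0.1, the smallest that 3 libraries against 3 allow). The mean of TW-1-2 rested on replicate 1 at -3.18, and the difference was 1.44 without replicate 1 of both lines and 1.66 without TW-1-2 replicate 1 alone. At stage 3 it averaged 1.08 in TW-1-M-3, against -0.79 in TW-1-3, a difference of 1.86 (exact permutation p = 0.4). The mean of TW-1-M-3 rested on replicate 3 at 3.76, and the difference was -0.09 without replicate 3 of both lines. In the means MIPS was thus on average the higher of the pair in TW-1-M and the lower in TW-1 at each stage, and at stage 2 the lines did not overlap.

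Over all stages the balance averaged 1.10 in TW-1-M, against -0.83 in TW-1, a difference of 1.93. This was tested by exchanging the lines within stages (exact permutation p = 0.0045, of 8000 relabellings, with 0.00025 the smallest possible). Without the 4 libraries that kept fewest of their reads the difference was 1.62 (exact permutation p = 0.00667), and without replicate 3 of every group it was 1.38 (exact permutation p = 0.111). The difference contains the same MIPS4 values as the comparison of MIPS4 above and is no separate support for it.

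**Figure D3:**
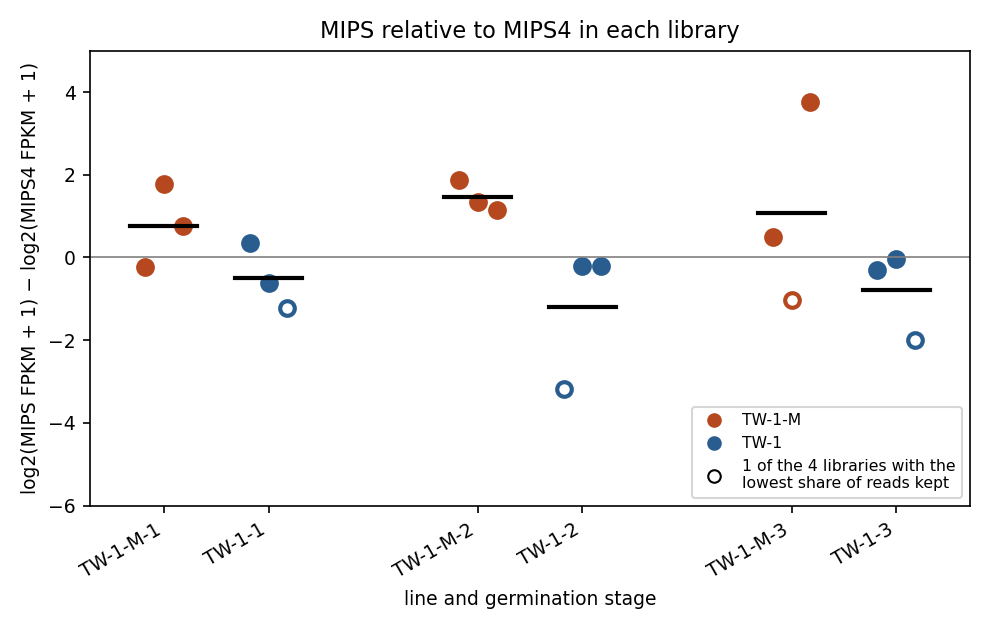
Log2(FPKM + 1) of MIPS minus that of MIPS4 in each library, by line and stage. Points are libraries, black lines are means of 3 libraries, and open points are the 4 libraries that kept the smallest share of their reads. The means lie above 0 in the 3 groups of TW-1-M (0.77, 1.46 and 1.08) and below 0 in the 3 groups of TW-1.

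Another gene, LOC100800820, bears a synthase annotation in the supplementary lists of the study, which chose it on these same libraries, and it is given here only beside the members. It had 35.8, 27.3 and 8.99 FPKM in TW-1-M-3, against 5.51, 1.14 and 4.60 FPKM in TW-1-M-1. These groups did not overlap, which 35.5% of genes shared in this direction. The gene was called higher in TW-1-M-3 (log2 fold change 2.35 ± 0.59, adjusted p = 0.0132, limma), as were 29.5% of all genes. MIPS and MIPS4 were not called there, which is no test of a difference between the genes. TW-1-M-3 replicate 2, at 27.3 FPKM, is 1 of the 4 libraries that kept fewest of their reads, and no fit without it is given for this gene. LOC100800820 was not called between the lines at any stage (adjusted p = 0.346, 0.197 and 0.631 at stages 1, 2 and 3). With a median of 8.31 FPKM, LOC100800820 had the highest median level of the 3 genes.

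Of the summed FPKM of the 3 genes, MIPS made up 44.5% ± 27.0 in TW-1-M-1, against 20.8% ± 8.37 in TW-1-1 (SD, n = 3 each). At stage 2 it made up 28.0% ± 6.38 in TW-1-M-2, against 14.4% ± 9.73 in TW-1-2. At stage 3 it made up 27.4% ± 29.9 in TW-1-M-3, against 16.1% ± 11.7 in TW-1-3. At each stage the mean share of MIPS was thus the higher in TW-1-M, with a spread over replicates as wide as the difference at stages 1 and 3. The share of MIPS4 was 18.6% ± 7.08 in TW-1-M-1, against 30.2% ± 8.43 in TW-1-1. At stage 2 it was 3.46% ± 5.11 in TW-1-M-2, against 30.7% ± 11.8 in TW-1-2, and at stage 3 it was 10.3% ± 12.0 in TW-1-M-3, against 28.0% ± 13.0 in TW-1-3. The mean share of MIPS4 in TW-1 was thus much the same at each stage although its level varied over the replicates, and LOC100800820 made up the largest share in every group but TW-1-M-1.

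**Figure D4:**
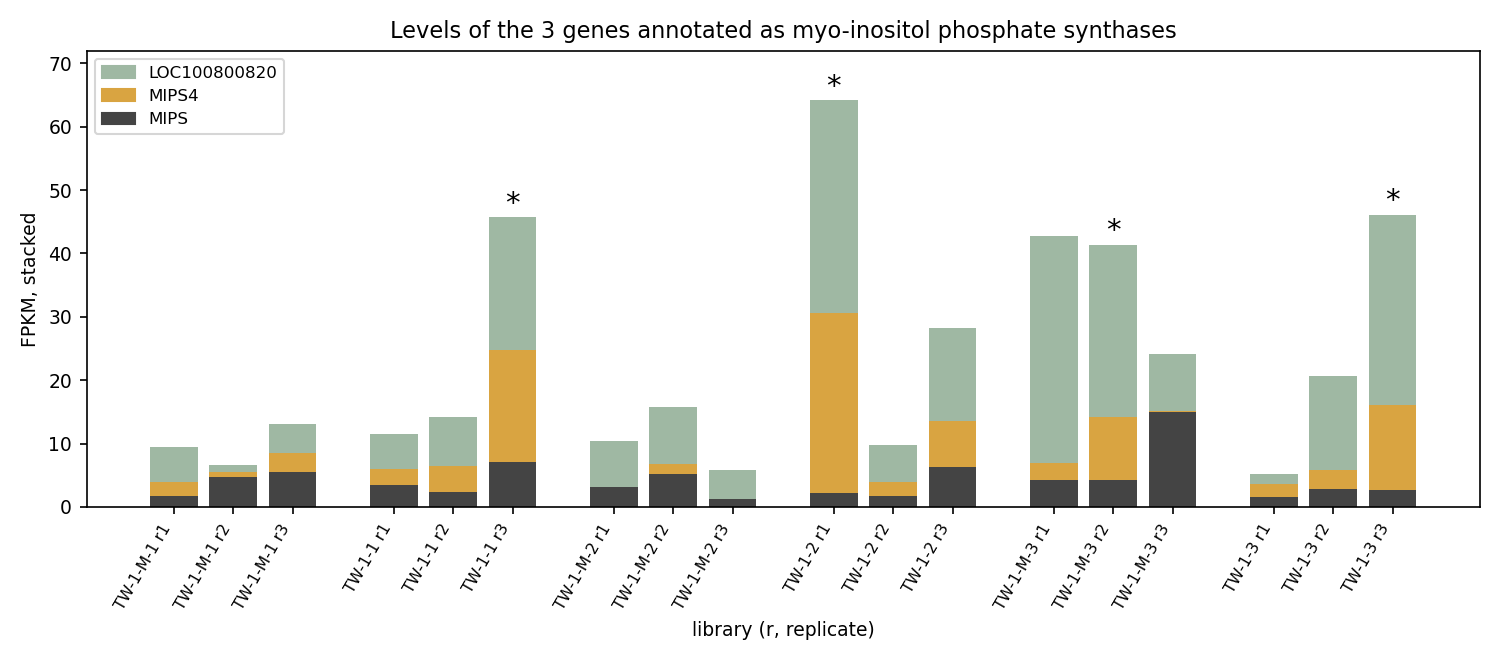
Stacked FPKM of MIPS, MIPS4 and LOC100800820 in each library, with TW-1-M left of TW-1 at each stage. Asterisks mark the 4 libraries that kept the smallest share of their reads after trimming. In these the sum is between 41.4 and 64.2 FPKM, and MIPS4 and LOC100800820 make up most of it. The unmarked TW-1-M-3 replicate 1 has a sum of 42.8 FPKM, with 83.7% from LOC100800820.

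The genes most like each member were those with the highest Pearson correlation of log2(FPKM + 1) over the 18 libraries, which share stages, lines and processing. For MIPS they were LOC100798791 (r = 0.764), XM_006592134.2 (r = 0.763), LOC100812815 (r = 0.741), LOC100819584 (r = 0.725) and LOC100811330 (r = 0.723), and 0 of the other 27149 genes had r above 0.8. For MIPS4 they were LOC100777080 (r = 0.955), LOC100500457 (r = 0.954), LOC100794172 (r = 0.952), GLYI-2 (r = 0.949) and LOC100306586 (r = 0.948). In all, 138 genes (0.508%) had r above 0.8 with MIPS4 and 49 had r above 0.9.

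These genes were picked for their likeness to MIPS4, so that their levels in its high libraries describe the choice and test nothing. For 77 of the 138 genes the 4 highest libraries were the same 4 in which MIPS4 was highest. The median over the 138 genes of their median level was 2.20 FPKM in these 4 libraries and 0.248 FPKM in the other 14. GLYI-2 had between 2.17 and 3.14 FPKM in the 4 libraries and between 0 and 0.89 FPKM in the others. MIPS4 correlated with LOC100800820 at r = 0.68 and with MIPS at r = -0.01, and MIPS with LOC100800820 at r = 0.19.

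The other genes in and around inositol metabolism were taken from a list of 35, made of 18 with a matching symbol and 17 that the study annotates among its differential genes, which were chosen on these libraries. It includes phosphatase genes with a PAP symbol or a purple acid phosphatase annotation, and not all of them have phytase among their synonyms. Of the 35, 29 could be tested. At stage 2, where MIPS4 was lower, 10 of the 29 were called lower in TW-1-M-2 and 0 higher (9.87% and 9.33% of all genes), with a list median log2 fold change of -0.61, against 0.08 over all genes. Of the 13 tested by symbol alone 2 were called, both lower. Among the 10 is LOC100527811, for which it was not settled whether the merged locus of this name holds 1 gene, and its values are not given. At stages 1 and 3, 0 of 29 were called between the lines (limma), against 0.468% and 0.0184% of all genes.

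Of the 10 called genes 8 are among those the study had chosen on these libraries, so that their direction is not independent evidence, and 7 act downstream of inositol in the synthesis of raffinose family sugars. GOLS, a galactinol synthase, averaged 9.37 FPKM in TW-1-M-2 and 51.6 FPKM in TW-1-2 (log2 fold change -2.32, adjusted p = 0.00567, limma). The galactinol synthase gene LOC100809287 averaged 64.5 FPKM in TW-1-M-2 and 693 FPKM in TW-1-2 (log2 fold change -3.41), and the stachyose synthase gene XM_003554508.3 averaged 9.59 FPKM in TW-1-M-2 and 118 FPKM in TW-1-2 (log2 fold change -3.42). Another gene of this pathway, LOC102665546, annotated as a galactinol-sucrose galactosyltransferase, averaged 86.3 FPKM in TW-1-M-2 and 21.8 FPKM in TW-1-2 and was not called (log2 fold change 2.71, adjusted p = 0.0777). LOC100787977, which has phytase among its synonyms, averaged 2.60 FPKM in TW-1-M-2 and 6.26 FPKM in TW-1-2 (adjusted p = 0.0312). The purple acid phosphatase PAP3, which has the same synonym, averaged 321 FPKM in TW-1-M-2 and 197 FPKM in TW-1-2 and was not called (adjusted p = 0.0588).

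Between stages the list is given by its 2 sources, since the genes of the study were chosen as differential on these libraries. In TW-1-M-3 against TW-1-M-1, 3 of the 13 genes tested by symbol were called higher and 5 lower, against 29.5% and 24.3% of all genes, and of the 16 genes of the study 6 were called higher and 10 lower. In TW-1-3 against TW-1-1, 0 of the 13 were called higher and 1 lower, against 0.265% and 0.726% of all genes, and of the 16 genes 0 were called higher and 3 lower. In TW-1-2 against TW-1-1 and in TW-1-3 against TW-1-2, 0 of all 29 were called (limma), against 0% of all genes in each. The inositol phosphate kinase genes IPK1, IPK2, ITPK1, ITPK2, ITPK3 and ITPK4 act between the synthase product and phytate. They were not called between the lines at stage 2, where 19.2% of all genes were. In TW-1-M-3 against TW-1-M-1, ITPK3 was called lower (log2 fold change -1.27, adjusted p = 0.0128, limma). IPK2 was called higher there (0.66, adjusted p = 0.0434, limma), and the other kinase genes named were not called.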

How the data were processed

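Total RNA of germinating seeds was depleted of ribosomal RNA and sequenced by the authors, who used Trimmomatic for trimming, TopHat for mapping and cuffquant with cuffnorm for the levels, and deposited 1 table of FPKM for 45955 genes in 18 libraries. The deposited FPKM already hold the scaling between libraries, and the table gives no counts, so no counting interval was computed. How reads shared by near-identical copies were divided is not given in the sources used here, so levels of MIPS, MIPS4 and LOC100800820 carry that uncertainty. A row is a merged locus and may hold more than 1 gene.

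Columns were matched to line, stage and replicate by name, with none left over. RefSeq identifiers without version were matched to symbols of a later assembly (Glycine_max_v4.0) for 36767 genes, of which 4901 also matched with version, and no coordinates were used. Genes with at least 1 FPKM in at least 3 libraries were kept (27150). The limma package 3.58.1 (R 4.3.3; lmFit, eBayes with trend) was applied to log2(FPKM + 1), using only the libraries compared, with Benjamini-Hochberg adjustment, and the fit was tested on simulated data. The balance of MIPS and MIPS4 was compared by exact permutation (pandas 2.3.3, SciPy 1.17.1 and NumPy 2.4.6 under Python 3.11.15), and matplotlib 3.10.9 drew the plots. The members, lists and tests were chosen with earlier results of these data known. The other synthase gene and the list come from symbols, synonyms and the annotations of the study, since no protein sequences were used here. From the list, genes called at stage 2 or with at least 100.0 FPKM in any group mean could be named, and not every one is printed. The kinase genes were named after their values were seen. The 5 genes most correlated with each member were named.

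Same-numbered libraries of TW-1-3 and TW-1-2 deviated together (r = 0.457 to 0.673 over genes), which is a pairing seen in the data alone and not in a label. The values and shares of this comparison given above are from the fit without it. With the replicate number as a block, the log2 fold change was -0.29 ± 0.34 for MIPS (adjusted p = 0.597) and -0.70 ± 0.80 for MIPS4 (adjusted p = 0.591, limma). No member was called there with or without the block. The alternatives tried were scaling to equal sums, quantile normalization, a pseudocount of 0.1, no filter or at least 1 FPKM required in every library, 1 fit of all libraries, a replicate block and each library left out. Those without the 4 libraries with the lowest share of reads kept, and without TW-1-3 replicate 1 over all stages, were added after the data were seen.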

Additional observations from a re-analysis of the deposited data

How the results depend on the processing

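The lower level of MIPS4 in TW-1-M-2 than in TW-1-2 kept its direction under every alternative, and its log2 fold change of -2.71 was no longer called with no filter on low values (more genes were then tested), with all 18 libraries in one fit, or with a replicate block (adjusted p = 0.170, 0.0654 and 0.0638, limma). It ranged from -3.48 to -1.87 with 1 library left out. Over all stages the MIPS4 value of -1.56 was -1.44 with FPKM scaled to equal sums (adjusted p = 0.0514), -1.56 without the stage term (adjusted p = 0.0954), and -2.26 to -0.85 with replicates left out. Quantile normalization made MIPS4 in TW-1-M-2 against TW-1-M-1 a call, at -1.19 (adjusted p = 0.0432). Scaling to equal sums moved the median log2 fold change of all genes to 0.12, 0.26 and 0.37 between the lines at stages 1, 2 and 3, and turned MIPS to 0.075 at stage 1 and 0.10 at stage 2. Both MIPS values lay below the medians of their stages, by less than their standard errors of 0.44 and 0.51, so no direction is read from them. Without the 4 libraries that kept fewest of their reads, MIPS was 0.28 in TW-1-M-1 against TW-1-1 and 0.19 in TW-1-2 against TW-1-1, and MIPS4 was -0.40 in TW-1-M-3 against TW-1-M-1. The cause of these changes was not tested.

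With 1 library left out in turn, the direction of several values that were not called depended on the library. Those of MIPS ranged from -0.35 to 0.32 between the lines at stage 1 and from -0.41 to 0.37 at stage 2, from -0.68 to 0.10 in TW-1-M-2 against TW-1-M-1, from -0.74 to 0.040 in TW-1-2 against TW-1-1, and from -0.56 to 0.14 in TW-1-3 against TW-1-2. Those of MIPS4 ranged from -1.43 to 0.17 between the lines at stage 3, from -0.40 to 1.20 in TW-1-M-3 against TW-1-M-1, from -0.45 to 1.16 in TW-1-2 against TW-1-1, from -1.47 to 0.14 in TW-1-3 against TW-1-2, and from -0.99 to 0.40 in TW-1-3 against TW-1-1. The balance of MIPS and MIPS4 differed by -0.086 to 3.29 at stage 3 and by 1.38 to 2.40 over all stages. The share of MIPS in the sum of 3 genes was higher in TW-1-M by 16.1 percentage points (10.5 to 25.0 with a replicate number left out), and by 37.3 points in the sum of MIPS and MIPS4 alone. Outside TW-1-3 and TW-1-2 the mean r of same-numbered libraries over genes was -0.200 to 0.182, with single pairs between -0.583 and 0.529. In TW-1-M-2 against TW-1-2 the single pairs had r of 0.067 to 0.280, against a mean of -0.089 for libraries of unlike number. The replicate block changed no call but the one named, and gave 1.93 for the balance over all stages (exact permutation p = 0.0312). Since the FPKM come without counts, the counting error of a gene as low as MIPS4 is unknown, and so is the division of reads between the synthase genes.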
